A study of Rattus norvegicus with 8 samples.

Results

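Astrocytes that met melanoma cells in which a hairpin targeted APP, the gene of the amyloid precursor protein (sh-APP, n = 3 libraries) were compared with astrocytes that met melanoma cells carrying a scrambled hairpin (control, n = 2). These 5 of the 8 libraries of the series were taken by the names of their columns. The genes described are the 14182 of 28546 entries of the count table that had at least 10 counts in at least 2 of the 5 libraries. The astrocytes of every group came from Sprague Dawley rat pups, and the melanoma cells were 12-273 BM cells. A single hairpin, shAPPa, stands for the knockdown, and the control cells also carried a hairpin, so both groups share the vector step. In the other 3 libraries an antibody against amyloid beta was added in the scrambled setting (anti-Abeta). The labels describe the exposure as a co-culture with melanoma, as 24 h in medium conditioned by melanoma cells, and as astrocyte medium moved onto the 12-273 BM cells for 24 h. The sources used here do not say which of these applied, how old the pups were or of which sex, or whether each library had a culture of its own. The p-values therefore measure only the spread between these libraries, which may be technical.

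The amyloid precursor protein is a membrane protein that secretases cut to release amyloid beta, a peptide that cells shed into their surroundings. Astrocytes bind and take up this peptide, and they clear glutamate and potassium around synapses, supply neurons with metabolites, and remodel their filaments and matrix when they react to injury. Astrocytes cultured from newborn animals still divide, so genes of DNA replication and mitosis are measured beside those of the mature functions.

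Total counts were 39951265 and 40113512 in the control libraries and ran from 41304519 to 44743406 in the sh-APP libraries. App, the rat gene of the precursor itself, had 559 and 587 CPM in the control libraries and 598, 589 and 647 in the sh-APP libraries (CPM, the counts scaled to a common library total with TMM factors). The groups adjoined without overlapping, and the log2 fold change of App was 0.09 ± 0.08 (SE), which edgeR's quasi-likelihood test did not call (adjusted p = 0.327). With library totals in place of TMM factors it was called higher, at 0.30 (adjusted p = 0.00394, edgeR). Because the melanoma cells, not the astrocytes, carried the hairpin, App in the astrocytes does not measure the knockdown, and no library measures amyloid beta. Of the 14 tested astrocyte markers 10 were called higher and 1 lower, and their summed level was 17750 and 18360 CPM in control and 19830 to 22920 in sh-APP, so markers of the labelled cell type were present in all 5 libraries.

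The response was broad, and whether the larger changes were mostly falls depended on the scaling. In sh-APP against control, the quasi-likelihood test of edgeR, adjusted by Benjamini-Hochberg, called 7770 of 14182 genes (54.8%) at an adjusted p under 0.05, of which 3735 (26.3%) were higher and 4035 (28.5%) lower. Among the called genes 302 (2.13%) rose and 1331 (9.39%) fell by more than 2-fold, against 730 and 781 with library totals. The median size of a called rise was 0.54 on the log2 scale and that of a called fall was -0.80. In 10145 of the tested genes (71.5%) the control and sh-APP libraries did not overlap. Among called genes this held for 99.8% of rises and 99.6% of falls, so it adds little to a call. Calls grew with the level of a gene: at a mean under 1 CPM, 3.92% of 2067 genes were higher and 5.32% lower, against 34.4% and 35.2% of 6598 genes between 10 and 100 CPM and 41.5% and 44.7% of the 94 genes at 1000 CPM or more. The median SE fell from 0.664 below 1 CPM to 0.114 between 10 and 100 CPM, so a gene below 1 CPM that was not called cannot be read as unchanged. Scaling moved the balance of directions. Of the calls, 48.1% were higher with TMM factors, 54.7% with upper-quartile factors (4366 higher and 3609 lower) and 62.7% with library totals (5188 higher and 3083 lower), and the median of all tested genes moved from 0.03 to 0.12 and 0.23. For counts within gene lists against control, the shares over all tested genes (26.3% higher and 28.5% lower) are the background. Counts with library totals are given for whole lists where they differ by over 1.5 times. They were not made for the complexes and families within a list. This background is not matched to level and is low for lists of well expressed genes. Between 100 and 1000 CPM, 36.6% of genes were higher and 43.9% lower. Leaving out control replicate 1 gave 2644 higher and 3285 lower, the fewest among the fits that left out 1 library.

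**Figure D1:**
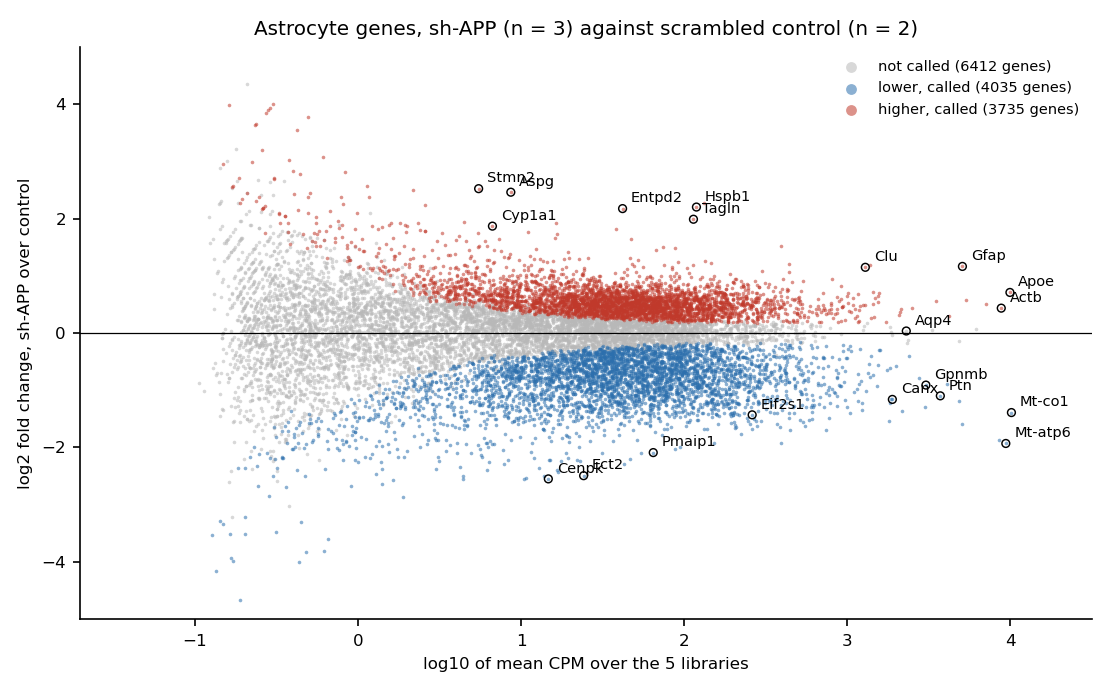
Each point is 1 of the 14182 tested genes, by the log10 of its mean CPM over the 5 libraries and its log2 fold change in sh-APP over control. Red genes were called higher (3735) and blue genes lower (4035), circles mark named genes, and 6 genes lie outside the axes. Mt-atp6 and Mt-co1 are the abundant genes far below 0, while Ncan, Gfap and Clu are the abundant genes furthest above it.

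Some of the largest rises are given first, not in order of size. They were taken among called genes with a mean of at least 5 CPM and no overlap between the groups. Entpd2, an enzyme at the cell surface that breaks down extracellular ATP, had 13.1 and 13.9 CPM in the control libraries and 62.8, 49.8 and 70.2 in the sh-APP libraries. The log2 fold change of Entpd2 was 2.18 ± 0.15 (SE, adjusted p = 3.46e-06, edgeR). Dlk1, a membrane protein related to Notch ligands, had 17.2 and 13.1 CPM in the control libraries and 58.2, 49.6 and 53.1 in the sh-APP libraries, a rise of 1.82 ± 0.17. C1ql1, a secreted relative of complement C1q that acts at synapses, had 24.8 and 16.5 CPM in the control libraries and 73.6, 54.5 and 66.6 in the sh-APP libraries, a rise of 1.65 ± 0.21. The choice of these genes required that the groups did not overlap. Serpinf1, the secreted factor PEDF, rose by 1.76 ± 0.21 from 4.81 and 4.24 CPM in control to 17.3, 12.8 and 15.8 in sh-APP. Cbs, which makes cystathionine from homocysteine and serine, rose by 1.72 ± 0.23, and Ppp1r1b, the phosphatase inhibitor DARPP-32, by 1.93 ± 0.20. P4ha3, a collagen prolyl hydroxylase, rose by 1.75 ± 0.34 and Caln1, a calcium-binding protein, by 1.66 ± 0.20. LOC500712, whose role is not given by the files, went from 40.6 and 40.2 to 206, 136 and 240.3 CPM. Among the 15 largest falls by the same rule were those of Cenpk, Ncapg, Cep55, Ect2, Kif20b, Depdc1, Shcbp1, Mastl, Cenpw, AY172581.21, Sgo1, Kif11, Nuf2 and Ccdc18, most of which act in mitosis and are taken up with that group. In absolute level the largest rises were those of Gfap, Apoe, Actb, Cst3, Ckb, Cd81, Clu and Ncan. Cst3, the secreted protease inhibitor cystatin C, had 5967 and 5438 CPM in the control libraries and 8058, 8149.8 and 8006 in the sh-APP libraries, and Ckb, brain creatine kinase, had 3926 and 4253 CPM in the control libraries and 6083, 6297 and 6008 in the sh-APP libraries. Both lay higher in every sh-APP library, with log2 fold changes of 0.50 ± 0.08 and 0.58 ± 0.08.

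**Figure D2:**
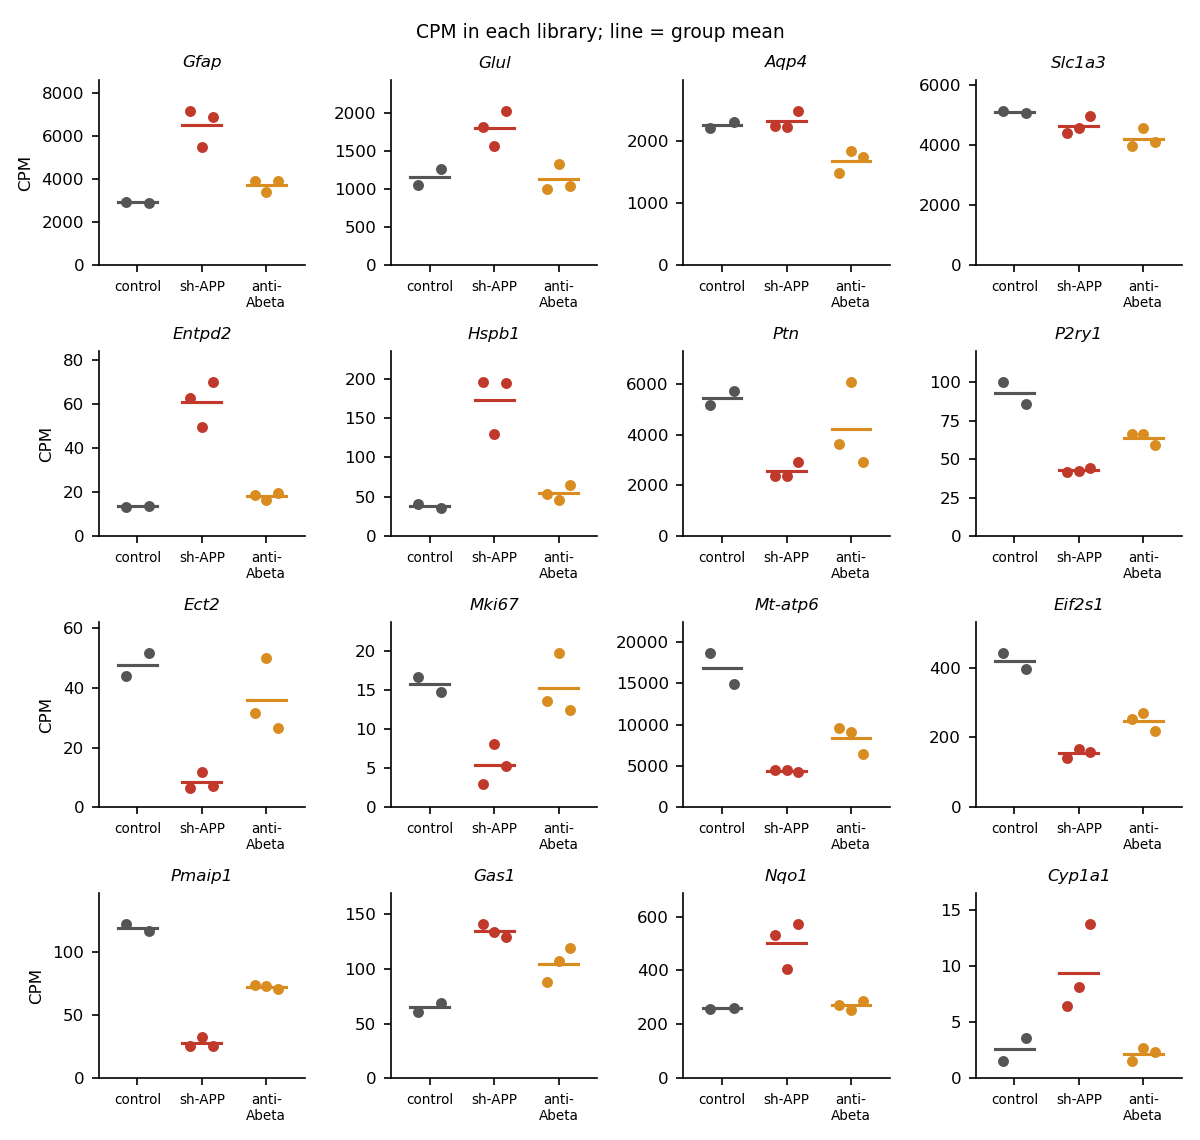
Level of 16 genes in each library, as CPM on a linear axis that starts at 0, with 1 point per library and a line at the group mean (control n = 2, sh-APP n = 3, anti-Abeta n = 3). Aqp4 overlaps between control and sh-APP, whereas for Entpd2, Hspb1, P2ry1, Ect2, Mt-atp6, Eif2s1 and Pmaip1 the sh-APP libraries all lie on 1 side of both control libraries. The choice of Entpd2, Hspb1 and Ect2 required this.

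Genes that handle glutamate, glutamine and GABA were called in both directions. Glul, glutamine synthetase, which turns glutamate into glutamine in astrocytes, had 1046 and 1260.2 CPM in the control libraries and 1809, 1570.1 and 2026 in the sh-APP libraries. The groups did not overlap, and Glul rose by 0.64 ± 0.14 (SE, adjusted p = 0.00153, edgeR). The amino acid transporter Slc38a10 rose by 0.70 ± 0.09. Slc1a3, an astrocyte glutamate transporter, had 5137 and 5061 CPM in the control libraries and 4402, 4580.4 and 4954 in the sh-APP libraries and was not called (-0.13 ± 0.08, adjusted p = 0.189). Slc1a2, the other one, was at 0.28 ± 0.11, a call (adjusted p = 0.0468) that did not hold without control replicate 1 (0.207), control replicate 2 (0.106), sh-APP replicate 2 (0.0572), sh-APP replicate 3 (0.174), nor when anti-Abeta replicate 3 was left out (0.0554), and not with DESeq2 (0.0504) or limma-voom (0.0548). Of the 24 tested genes of the list, 10 rose and 4 fell, with a median of 0.19 against 0.03 over all tested genes. The higher count was 5 without control replicate 1 and 6 without control replicate 2 or sh-APP replicate 2, and the lower count was 2 without control replicate 2.

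Among genes of ion and water transport, accessory subunits of the sodium pump were called in both directions while Aqp4 and Kcnj10 were not called. Aqp4, the water channel of astrocyte endfeet, had 2215 and 2316 CPM in the control libraries and 2251, 2226 and 2490.1 in the sh-APP libraries. The groups overlapped, and the 95% interval of its log2 fold change, -0.17 to 0.24, lay within 1.2-fold of no change (log2 fold change 0.24, adjusted p = 0.0327, with library totals). Kcnj10, the potassium channel Kir4.1, was at 0.19 ± 0.11 (adjusted p = 0.157, not called; called higher at 0.27 with upper-quartile factors and 0.39 with library totals). Fxyd1, phospholemman, which modulates the sodium pump, had 33.7 and 30.7 CPM in the control libraries and 73.5, 67.6 and 75.2 in the sh-APP libraries and rose by 1.16 ± 0.11. Atp1b3, a beta subunit of that pump, had 393 and 347 CPM in the control libraries and 180.0, 202 and 193 in the sh-APP libraries and fell (-0.95 ± 0.09). Car2, a carbonic anhydrase, fell as well (-0.76 ± 0.08). For Fxyd1, Atp1b3 and Car2 no sh-APP library overlapped a control library. Over the 23 tested genes of the list 10 rose and 6 fell (median 0.22). Slc12a2, the chloride importer NKCC1, was among those that fell (-1.15), and Atp1b2 and Hepacam, which mark astrocyte membranes, were among those that rose (0.49 and 0.50).

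Secreted and membrane factors with which astrocytes shape synapses were more often higher. Of 20 tested genes 11 rose and 3 fell (median 0.39), and the higher count was 7 without control replicate 2. All 4 tested thrombospondins, which promote the formation of synapses, rose, by 0.44 to 1.47 on the log2 scale. Thbs4 had 137 and 142 CPM in the control libraries and 194, 185 and 186 in the sh-APP libraries and rose by 0.44 ± 0.07, and Thbs1 had 3.31 and 2.16 CPM in the control libraries and 5.02, 5.99 and 6.40 in the sh-APP libraries (1.09 ± 0.27), a call that edgeR no longer made without control replicate 2 (adjusted p = 0.0661). Thbs1 lay higher in every sh-APP library than in either control library. Of the 4 tested glypicans 3 rose, and Gpc1 had 117 and 131 CPM in the control libraries and 224, 213 and 228 in the sh-APP libraries (0.84 ± 0.09). Gpc4 and Gpc6, known as astrocyte-secreted recruiters of glutamate receptors, rose by 0.75 and 0.63. Nlgn1, a neuroligin that binds neurexins across the synapse, fell (-0.68 ± 0.11, from 52.4 and 50.3 to 29.5, 31.99 and 34.5 CPM), while Nlgn2 was among those that rose (0.59).

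Trophic factors moved in single genes. Ptn, pleiotrophin, a secreted growth factor, had 5182 and 5748 CPM in the control libraries and 2358, 2381 and 2921 in the sh-APP libraries and fell (-1.10 ± 0.22, adjusted p = 0.00111, edgeR). Its relative Mdk, midkine, moved the other way, from 24.6 and 22.7 CPM in control to 39.6, 41.5 and 42.3 in sh-APP (0.80 ± 0.11). Neither gene overlapped between the groups. Pdgfd, a platelet-derived growth factor, fell to 26.8, 35.4 and 33.98 from 85.2 and 106 CPM (-1.58 ± 0.21), and Cntf, the ciliary neurotrophic factor, fell as well (-0.87 ± 0.12). In all, 5 of 25 tested trophic factors rose and 4 fell (median 0.16), against 9 and 3 with library totals. In the insulin-like growth factor axis 3 of 14 rose and 1 fell (median 0.18), against 6 and 0 with library totals. Its binding proteins Igfbp2 and Igfbp7 rose by 0.71 ± 0.11 and 0.50 ± 0.08, and Igfbp2 had 939 and 1143 CPM in the control libraries and 1661, 1698 and 1745 in the sh-APP libraries. The receptor Igf1r was at 0.24 ± 0.09 (adjusted p = 0.0455), which was not called without either control replicate (0.181 and 0.119), without sh-APP replicate 2 (0.0880) or 3 (0.165), or without anti-Abeta replicate 1 (0.0510) or 3 (0.0541), nor with DESeq2 (0.0571) or limma-voom (0.0592). Igf2bp2, the 1 gene that fell (-0.45 ± 0.17), was not called without control replicate 2 (0.235), sh-APP replicate 2 (0.111) or sh-APP replicate 3 (0.0550), nor with library totals (-0.25). The count of genes of this axis that fell was 0 without control replicate 2 or sh-APP replicate 3 and 2 without anti-Abeta replicate 1.

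Genes of developmental pathways were called in both directions. Of 12 tested Hedgehog genes 6 rose and 1 fell (median 0.50), against 8 and 0 with library totals. Smo, the signal transducer of the pathway, had 104 and 123 CPM in the control libraries and 163, 156 and 159.9 in the sh-APP libraries (0.49 ± 0.08). The coreceptors Gas1 and Boc rose by 1.06 ± 0.12 and 0.71 ± 0.13, and Gas1 went from 60.9 and 68.4 to 141, 133 and 129 CPM. All of these were higher in each sh-APP library than in either control library. Gli2 and Gli3, the transcription factors of the pathway, rose by 0.66 and 0.46. Ptch1, receptor and target, was at -0.08 and was not called, and the target Gli1 had too few counts to be tested. The 1 that fell, Cdon (-0.53), is a coreceptor too, picked after its values were seen, and it was not called without control replicate 1, sh-APP replicate 1 or sh-APP replicate 3, so that the count of falls was then 0.

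In the Wnt pathway 10 of 29 tested genes rose and 6 fell (median 0.29), near the 26.3% and 28.5% of all tested genes, with 5 higher without control replicate 1 and 3 lower with library totals. Fzd2, a Wnt receptor, had 17.1 and 16.9 CPM in the control libraries and 35.5, 32.1 and 29.8 in the sh-APP libraries (0.93 ± 0.12), and of 8 tested frizzled receptors 5 rose and 1 fell (3 rose without control replicate 1 or control replicate 2). Sfrp1, a secreted antagonist of Wnt, rose by 0.74 ± 0.08, and Tcf7l2, a nuclear effector, had 53.9 and 52.99 CPM in the control libraries and 24.1, 22.1 and 27.5 in the sh-APP libraries and fell (-1.12 ± 0.13). Axin2, a common target of the pathway, stayed below 1 CPM and was at 0.06 ± 0.59, where the SE allows a change in either direction. Among ephrins, semaphorins, slits and netrins and their receptors 17 of 47 rose and 7 fell (median 0.38), against 10 and 3 without control replicate 1 and 24 and 2 with library totals. Plxnb1, a semaphorin receptor, had 21.2 and 24.9 CPM in the control libraries and 48.2, 45.1 and 49.2 in the sh-APP libraries (1.04 ± 0.11), and 4 of 7 tested plexins and 4 of 5 tested EphB receptors rose. Sema3c, a secreted semaphorin, had 395 and 385 CPM in the control libraries and 183, 222 and 221 in the sh-APP libraries and fell (-0.90 ± 0.13), and 3 of 5 tested class 3 semaphorins fell and 2 were not called. Plxnb1 and Sema3c lay apart between the groups in opposite directions.

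Notch1, the receptor, rose by 0.85 ± 0.11 from 42.6 and 52.5 to 78.02, 87.04 and 92.7 CPM, and Hes6, an atypical member of the Hes family, by 0.87 ± 0.12. Hes1, the classic Notch target, was at 1.70 and 2.78 CPM in control and 2.21, 1.88 and 1.71 in sh-APP, with overlapping libraries, and was not called (-0.21 ± 0.30). Id2 fell (-0.63 ± 0.09) and so did Id4 (-1.08), both inhibitors of basic helix-loop-helix factors, while Id3 rose (0.50). In total 7 of 22 genes of the Notch and Id list rose and 5 fell (median 0.16). Acvr2a, an activin and bone morphogenetic protein receptor, fell from 103 and 90.9 to 37.5, 39.6 and 40.3 CPM (-1.31 ± 0.13), Smad5 fell too (-0.61 ± 0.08), and 5 genes of that pathway rose and 5 fell of 23 tested (median -0.10, and 0.11 with library totals). The list of the aryl hydrocarbon receptor held 10 tested genes, of which 3 rose and 1 fell (2 fell without anti-Abeta replicate 2 or 3; median 0.08). Cyp1a1, its best known target, had 1.56 and 3.59 CPM in the control libraries and 6.43, 8.11 and 13.7 in the sh-APP libraries and rose by 1.87 ± 0.40 (adjusted p = 0.00151, edgeR), whereas the receptor gene Ahr was at 4.56 and 9.12 and 6.39, 7.70 and 8.55 CPM, with overlapping libraries, and was not called (0.14 ± 0.41). Ahrr and Cyp1b1, further targets, were at 0.32 and -0.43 and were not called either.

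In purine signalling the rise of Entpd2 stood beside receptor genes that moved in both directions. P2ry1, an ADP receptor that triggers calcium waves in astrocytes, had 100.1 and 86.1 CPM in the control libraries and 41.5, 42.3 and 44.2 in the sh-APP libraries and fell by 1.13 on the log2 scale (-1.13 ± 0.09). Adora1, the inhibitory adenosine receptor, had 129 and 153 CPM in the control libraries and 225, 196 and 216 in the sh-APP libraries and rose (0.59 ± 0.09). Neither receptor overlapped between the groups. Of 22 tested genes 9 rose and 5 fell (median 0.24), with 5 higher without control replicate 1 and 3 lower without control replicate 2. The circadian genes Clock and Nr1d2 fell (-1.23 ± 0.12 and -0.95 ± 0.09), while Nr1d1, a paralog of Nr1d2, rose (0.62 ± 0.08). Clock went from 56.1 and 64.7 to 21.8, 28.3 and 27.4 CPM. Of 19 clock genes 9 rose and 2 fell (median 0.20), and 4 rose without control replicate 2. Nr3c1, the glucocorticoid receptor, its target Sgk1 and Hsd11b1, which regenerates the active hormone, all fell (log2 fold changes of -0.66 ± 0.07, -1.10 ± 0.12 and -0.90 ± 0.11). Mt2A, Fkbp5 and Zbtb16, also in the list of this receptor and its targets, rose, 1 of them by more than 2-fold. In that list 3 of 12 rose and 4 fell (median -0.11, and 0.09 with library totals), with 1 higher without control replicate 1 or control replicate 2.

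Genes of cell division fell from DNA replication through cytokinesis, with larger median falls in the lists of mitosis than in that of replication. In these bulk libraries fewer dividing cells and less RNA per dividing cell cannot be told apart. Mki67, a protein of dividing cells, had 16.7 and 14.8 CPM in the control libraries and 3.03, 8.05 and 5.32 in the sh-APP libraries and fell (-1.52 ± 0.30, adjusted p = 0.00101, edgeR), with no overlap between the groups. Of 49 tested genes of replication origins, forks and nucleotide supply 33 fell and 3 rose (1 rose without control replicate 1 or sh-APP replicate 2, and 7 rose and 24 fell with library totals), with a median of -0.60. Of 33 genes of homologous recombination and Fanconi repair 27 fell and 3 rose (median -0.82), of 23 genes of cohesin and condensin 20 fell and 1 rose (-1.18), of 40 genes of the mitotic spindle and cytokinesis 35 fell and 1 rose (-1.24; 32 and 2 with library totals), and of 43 genes of centromere and kinetochore 34 fell and 2 rose (-1.41; 1 rose without control replicate 1). With library totals the medians were -0.39, -0.61, -0.98, -1.04 and -1.21, in the same order. The falls exceeded 2-fold in 25 genes of the spindle list and 24 of the kinetochore list.

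Among replication genes the origin recognition complex fell as a whole (6 of 6 tested, -0.43 to -1.46), and Orc4 had 72.3 and 69.5 CPM in the control libraries and 21.4, 28.03 and 27.9 in the sh-APP libraries (-1.46 ± 0.12). Of the 6 subunits of the MCM2-7 helicase 3 fell and 3 were not called, Mcm2 and Mcm7 among the latter (0.19 and 0.09), and 1 was called higher without control replicate 2. Rrm1, the large subunit of ribonucleotide reductase, had 154 and 156 CPM in the control libraries and 82.9, 84.5 and 83.3 in the sh-APP libraries (-0.89 ± 0.07). Fanci, of the Fanconi complex that binds crosslinked DNA, went from 21.99 and 24.8 to 7.96, 11.3 and 10.03 CPM (-1.26 ± 0.15), and Nbn and Rbbp8, which act on DNA ends, fell as well (-0.82 and -0.69). In cohesin, the ring that holds sister chromatids, all 5 core genes tested fell, and Stag2 had 258 and 252 CPM in the control libraries and 88.4, 104 and 89.5 in the sh-APP libraries (-1.44 ± 0.11). Smc5 and Smc6, the ring pair that acts in repair, fell by similar amounts (-1.23 ± 0.10 and -1.21 ± 0.09). In condensin 6 of 8 fell and 1 rose, led by Ncapg, which had 18.96 and 23.7 CPM in the control libraries and 3.44, 4.69 and 2.83 in the sh-APP libraries (-2.54 ± 0.30). At the kinetochore, all 4 genes of the NDC80 complex, which grips microtubules, fell, with Spc25 at -2.22 ± 0.17 and Nuf2 at -2.23 ± 0.21. Cenpi, of the inner kinetochore, had 33.7 and 39.4 CPM in the control libraries and 8.26, 8.37 and 7.65 in the sh-APP libraries (-2.18 ± 0.15), and 9 of 12 genes of the inner kinetochore fell. All 12 tested kinesins fell, and Kif11, which pushes the spindle poles apart, had 36.1 and 51.1 CPM in the control libraries and 6.25, 13.6 and 7.75 in the sh-APP libraries (-2.24 ± 0.26). Ect2, which starts cytokinesis, had 43.97 and 51.6 CPM in the control libraries and 6.45, 11.7 and 7.22 in the sh-APP libraries (-2.49 ± 0.26). None of the genes given with values for each library overlapped between the groups. For Ncapg, Kif11 and Ect2 the choice of genes required this, and nearly all called genes share it.

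The promoters of the spindle genes were read because these genes fell together. Cell cycle genes of late phases are known to carry a motif called CHR (TTTGAA) together with CCAAT boxes, and these letters were sought on both strands in the 250 bases before the start of each gene in the RefSeq promoter table (GRCr8). TTTGAA was present in 20 of 32 spindle genes with 1 promoter in the table (62.5%), against 10.1% of 9819 tested genes with 1 promoter and 16.2% of all 33469 promoters. CCAAT was present in 23 of 32 (71.9%) against 35.5% of tested genes and 11385 of all 33469 promoters. Both stood in 16 of 32 (50.0%) against 3.90% of tested genes. Among tested genes with 1 promoter, TTTGAA was in 12.1% of genes called lower, 7.46% of genes called higher and 10.6% of genes not called. In the spindle list the median log2 fold change was -1.22 in the 20 genes with TTTGAA and -1.28 in the 12 without. In the kinetochore list, TTTGAA was in 5 of 36 promoters (13.9%), and in the replication list in 3 of 40 (7.50%), where TTTNGCGC, the core of sites for E2F factors, was in 8 of 40 against 1.87% of tested genes. The 3 spindle genes with both motifs and the smallest p are shown with TTTGAA and CCAAT, or their reverse complements, in capitals; each run is 5′ to 3′ on the gene's strand and ends at the base before the annotated start.
Ect2 (chr2:111966627-111966876, minus strand): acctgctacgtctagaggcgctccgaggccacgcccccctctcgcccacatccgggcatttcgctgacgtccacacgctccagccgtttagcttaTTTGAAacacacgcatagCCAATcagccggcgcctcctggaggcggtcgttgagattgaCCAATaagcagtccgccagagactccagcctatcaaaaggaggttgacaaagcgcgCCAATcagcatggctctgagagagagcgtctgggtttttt
Kif23 (chr8:71320585-71320834, minus strand): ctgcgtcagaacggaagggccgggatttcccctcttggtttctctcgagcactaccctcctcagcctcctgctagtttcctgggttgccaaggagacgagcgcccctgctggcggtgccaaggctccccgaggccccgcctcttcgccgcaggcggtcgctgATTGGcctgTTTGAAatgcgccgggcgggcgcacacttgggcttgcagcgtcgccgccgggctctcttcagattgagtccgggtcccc
Prc1 (chr1:143659231-143659480, plus strand): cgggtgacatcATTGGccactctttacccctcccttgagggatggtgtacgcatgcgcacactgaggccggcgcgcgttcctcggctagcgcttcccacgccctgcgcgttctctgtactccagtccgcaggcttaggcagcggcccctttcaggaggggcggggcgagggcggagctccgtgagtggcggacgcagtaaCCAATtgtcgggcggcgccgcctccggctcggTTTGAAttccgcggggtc
Kif23, a kinesin of the central spindle, fell from 32.9 and 32.1 to 8.28, 13.5 and 9.21 CPM, a log2 fold change of -1.65 ± 0.18, and Prc1, which bundles the central spindle, had -1.53 ± 0.16. A match of letters is a description of the sequence and was not measured as a binding site here.

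Regulators of G1 and targets of p53 were called in both directions, among genes that drive and genes that restrain the cycle. Of 30 G1 genes 14 fell and 7 rose (median -0.28; 3 rose without control replicate 1 and 4 without control replicate 2), against 10 falls and 8 rises with library totals (median -0.07). Ccne2, cyclin E2, which drives entry into S phase, had 38.8 and 43.8 CPM in the control libraries and 9.69, 11.9 and 9.32 in the sh-APP libraries (-2.00 ± 0.21). Cdkn2b, the inhibitor p15, fell too, with 989 and 885 CPM in the control libraries and 548, 580.0 and 524 in the sh-APP libraries (-0.77 ± 0.07), and so did the inhibitor Cdkn1b (-1.25) and the pocket proteins Rb1 (-1.11) and Rbl1 (-1.26). Cdkn1a, the inhibitor p21, was higher (0.50 ± 0.14, from 8.76 and 9.29 to 12.8, 13.5 and 11.9 CPM), but edgeR gave an adjusted p of 0.0699 when control replicate 1 was left out. Myc was higher as well (0.42 ± 0.11), again not called when control replicate 2 was left out (adjusted p = 0.0713, edgeR). Of 27 p53 targets 13 fell and 8 rose (median -0.21), against 10 and 9 with library totals (median -0.01). Pmaip1, the pro-death protein Noxa, had 122 and 117 CPM in the control libraries and 25.5, 33.1 and 25.6 in the sh-APP libraries and fell by 2.09 on the log2 scale (-2.09 ± 0.11). Mdm2, which degrades p53, and Ccng1, cyclin G1, fell (-0.71 ± 0.09 and -0.79 ± 0.09). Pmaip1, Mdm2 and Ccng1 each lay lower in every sh-APP library than in either control library.

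**Figure D3:**
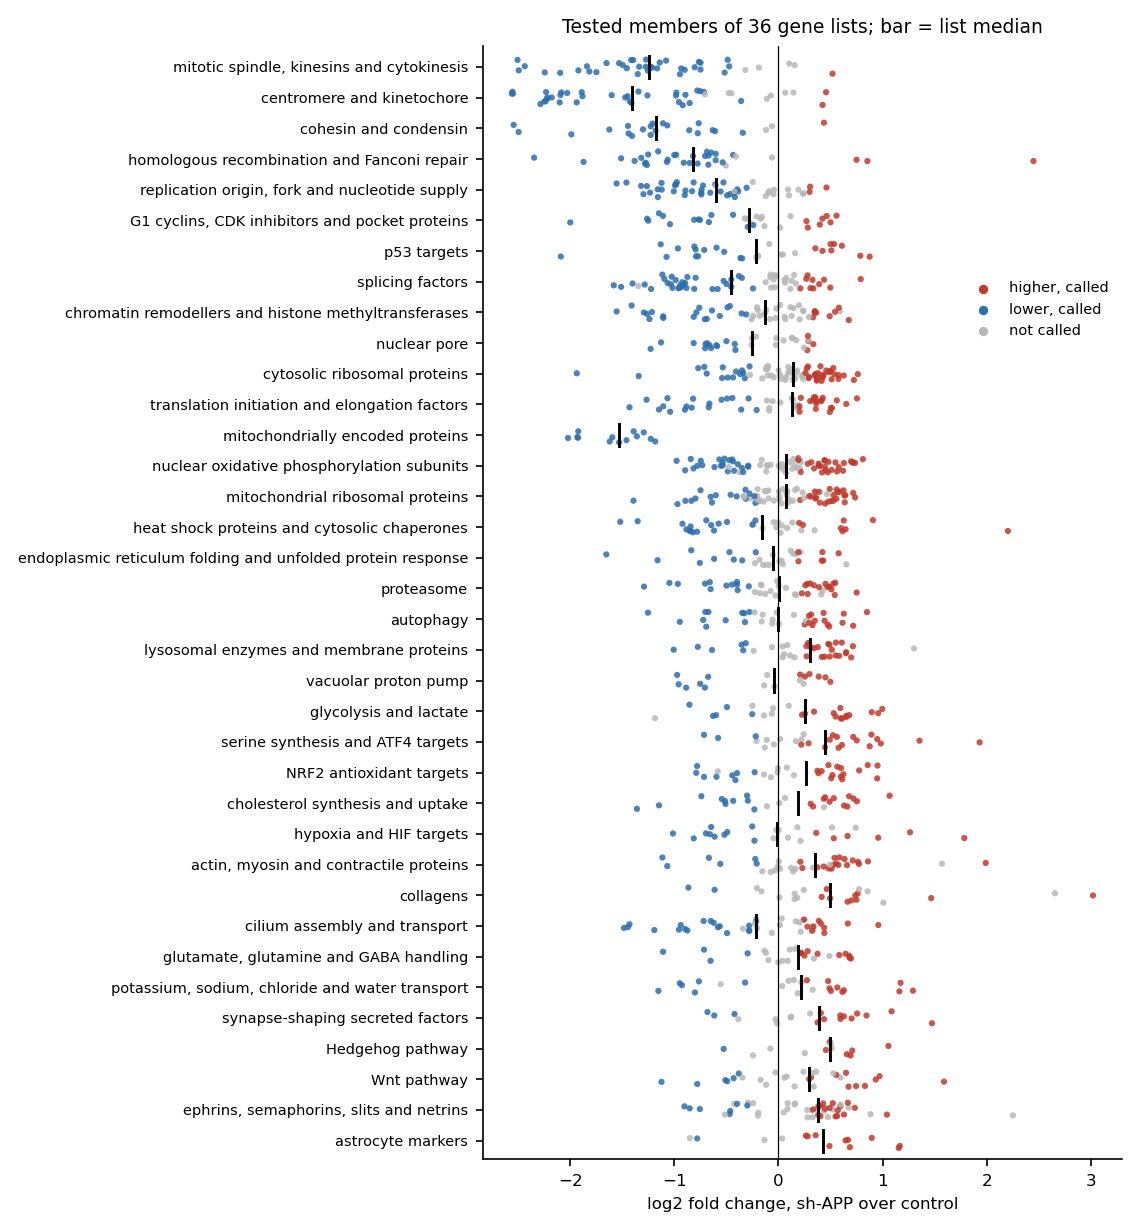
Log2 fold change in sh-APP over control of the tested members of 36 gene lists, 1 point per gene (vertical scatter within a row is random), coloured by the call, with a bar at the list median. The lists of cell division lie to the left, with medians from -0.60 for replication to -1.41 for the kinetochore, all 13 mitochondrially encoded genes lie below -1, and most other lists hold called genes on both sides of 0.

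Genes that act on RNA in the nucleus fell by family. Of 58 splicing factors 32 fell and 10 rose (median -0.45; 5 rose without control replicate 1, and 16 with library totals). Within the list, 8 of 10 SR proteins, which recruit the spliceosome to exons, fell and the other 2 were not called. Of 15 hnRNP proteins, which coat nascent RNA, 12 fell and 3 were not called. The core particles of the spliceosome were split, with 7 of 18 higher and 4 lower (median 0.09). Hnrnpk had 1596 and 1573 CPM in the control libraries and 724, 838 and 774 in the sh-APP libraries (-1.02 ± 0.09), and Hnrnpu fell too (-1.03 ± 0.09). Of 50 chromatin remodellers and histone methyltransferases 19 fell and 8 rose (median -0.13), against 15 and 14 with library totals (median 0.07; 4 rose without control replicate 1 or control replicate 2). Smarca5, a nucleosome-sliding ATPase, had 227 and 197 CPM in the control libraries and 81.5, 95.05 and 88.7 in the sh-APP libraries (-1.26 ± 0.10). Eed, Suz12 and Ezh2, the core of the silencing complex PRC2, all fell (-1.21, -1.29 and -1.11). Of 28 nuclear pore genes 13 fell and 4 rose (median -0.26; 1 rose without control replicate 1, 2 without control replicate 2 and 10 with library totals), and Ndc1, which anchors the pore in the membrane, went from 143 and 142 to 50.1, 67.04 and 65.8 CPM (-1.23 ± 0.15).

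Translation genes divided by complex. All 3 subunits of eIF2, which carries the initiator tRNA and is the target of stress kinases, fell. Eif2s1, its regulated alpha subunit, had 442 and 397 CPM in the control libraries and 142, 167 and 158 in the sh-APP libraries, a log2 fold change of -1.43 ± 0.10 (adjusted p = 3.46e-06, edgeR), and Eif2s2 had 213 and 197 CPM in the control libraries and 109.9, 113 and 111 in the sh-APP libraries (-0.88 ± 0.07). Both were lower in all sh-APP libraries. In eIF3, the scaffold of initiation, 6 of 12 rose and 3 fell, and of 5 elongation factors 4 rose and 1 fell. In all, 19 of 48 translation factors rose and 18 fell (median 0.13). Of 70 cytosolic ribosomal protein genes 28 rose and 15 fell (median 0.14), but 5 fell without control replicate 1, and 42 rose and 6 fell with library totals. Rpsa had 299.9 and 306 CPM in the control libraries and 466, 465 and 421 in the sh-APP libraries (0.57 ± 0.08) and Rpl13 rose by 0.63 ± 0.09, while Rpl30 was at 29.1 and 26.6 CPM in control and 8.92, 12.8 and 11.2 in sh-APP (-1.34 ± 0.19). Ribosomal protein genes have many near-identical processed copies, so reads may have been shared or dropped, and their levels and changes are uncertain.

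All 13 tested protein genes of mitochondrial DNA fell by more than 2-fold, from -1.18 to -2.02 on the log2 scale (median -1.53, and -1.32 with library totals). Their summed level was 68990 and 54600 CPM in control and 22290, 23970 and 18720 CPM in sh-APP, so the groups lay far apart while the control libraries also differed. Mt-atp6, a subunit of the ATP synthase, had 18666 and 14954 CPM in the control libraries and 4469, 4534 and 4227 in the sh-APP libraries (-1.93 ± 0.15). Mt-co1, the catalytic subunit of complex IV, had 18038 and 14213 CPM in the control libraries and 6408, 6858 and 5192 in the sh-APP libraries (-1.39 ± 0.12), and Mt-nd6, a complex I subunit and the only one of the 13 encoded on the other strand, had 175 and 147 CPM in the control libraries and 36.8, 42.3 and 39.9 in the sh-APP libraries (-2.02 ± 0.15). Without strand, reads of Mt-nd6 cannot be told from those of the opposite strand. In a fit without the 13 genes 3732 genes were higher and 4025 lower, close to the counts with them. That fit kept AY172581.24, an abundant entry not matched to a RefSeq gene. It had 15580 and 14460 CPM in the control libraries and 3270, 4606 and 4449 in the sh-APP libraries (-1.87 ± 0.17). The fit therefore did not take out every abundant entry that fell. The nuclear partners of these genes were called in both directions. Of 73 nuclear subunits of oxidative phosphorylation 27 rose and 23 fell (median 0.07), against 41 and 15 with library totals (median 0.28). Of 71 mitochondrial ribosomal proteins 24 rose and 16 fell (median 0.08; 9 fell without control replicate 1), against 36 and 10 with library totals. Inside complex I 10 nuclear subunits rose and 11 fell of 35: Ndufb7 had 75.3 and 74.8 CPM in the control libraries and 124, 132 and 119 in the sh-APP libraries (0.74 ± 0.09) and Ndufc2 had 235 and 206 CPM in the control libraries and 111, 142 and 117 in the sh-APP libraries (-0.84 ± 0.10). In the ATP synthase 6 rose and 4 fell of 14 (2 fell without control replicate 1). Atp5d, the delta subunit of its rotor, rose by 0.81 ± 0.09, and Atp5b, the catalytic beta subunit, was at 1829 and 1849 CPM in control and 1869, 1883 and 1860.3 in sh-APP, with a 95% interval of -0.12 to 0.17 (0.23, adjusted p = 0.0138, with library totals).

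Chaperones and degradation machinery split in the same way, subunit by subunit. Of 35 heat shock proteins and cytosolic chaperones 8 rose and 16 fell (median -0.15, and 0.05 with library totals). Among small heat shock proteins, which hold unfolded proteins, 3 of 5 rose, led by Hspb1 with 40.2 and 35.04 CPM in the control libraries and 196, 129.8 and 194 in the sh-APP libraries (2.20 ± 0.19). In the CCT chaperonin, which folds actin and tubulin, 6 of 8 fell and 2 were not called. Dnaja1, a partner of Hsp70, had 1038 and 954 CPM in the control libraries and 517, 573 and 529 in the sh-APP libraries (-0.88 ± 0.08), and Hsf2, a heat shock transcription factor, had 205 and 193 CPM in the control libraries and 68.7, 64.6 and 74.97 in the sh-APP libraries (-1.52 ± 0.11), while its paralog Hsf1 rose (0.61). The heat shock element, sought as GAANNTTC in the 250 bases before the start (the reverse complement reads the same), was in 12 of 30 promoters of the list (40.0%) against 4.57% of tested genes and 7.23% of all promoters in the table. Of the 12 genes with the letters 5 rose (Hspb1, Hspb6, Hspb8, Dnajb1 and Bag3), 4 fell (Hspa9, Hspd1, Dnaja1 and Dnajb6) and 3 were not called. The called genes of this kind with the highest and the lowest fold change are shown with the element in capitals.
Hspb1 (chr12:26432302-26432551, minus strand): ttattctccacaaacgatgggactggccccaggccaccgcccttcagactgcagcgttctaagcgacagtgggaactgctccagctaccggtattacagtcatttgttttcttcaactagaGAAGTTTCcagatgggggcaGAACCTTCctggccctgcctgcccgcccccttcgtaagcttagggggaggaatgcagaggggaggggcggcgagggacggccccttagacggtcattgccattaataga
Hspd1 (chr9:64084038-64084287, minus strand): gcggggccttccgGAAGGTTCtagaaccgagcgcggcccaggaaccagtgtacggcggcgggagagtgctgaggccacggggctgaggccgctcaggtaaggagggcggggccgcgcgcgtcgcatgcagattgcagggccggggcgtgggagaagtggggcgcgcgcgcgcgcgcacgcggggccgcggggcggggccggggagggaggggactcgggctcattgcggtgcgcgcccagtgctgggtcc
Hspd1, the mitochondrial chaperonin Hsp60, had 707 and 631 CPM in the control libraries and 331, 363 and 366 in the sh-APP libraries (-0.92 ± 0.08), so genes with these letters lay on both sides of 0.

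In the proteasome 15 of 41 genes rose and 12 fell (median 0.00). Of the 7 genes of the alpha ring, the gate of the core, 5 fell and 1 rose, and of the 10 genes of the beta ring, which holds the proteolytic sites, 5 rose and 5 were not called. Psma3 had 409.8 and 363 CPM in the control libraries and 176, 210.0 and 174 in the sh-APP libraries (-1.05 ± 0.09), and Psmc6, an ATPase of the cap, had 309 and 290.3 CPM in the control libraries and 104, 134 and 129 in the sh-APP libraries (-1.29 ± 0.12), while Psmc3, another of these ATPases, rose (0.49). The vacuolar proton pump, which acidifies lysosomes, split between its parts: all 6 tested V0 genes, of the membrane ring, rose by 0.21 to 0.50 (3 rose without control replicate 2), and 5 of 9 V1 genes, of the ATPase head, fell and 4 were not called (1 was higher without anti-Abeta replicate 2). Over the pump 6 of 17 rose and 6 fell (median -0.04). With library totals 8 rose and 6 fell (median 0.17), so that scaling called some genes outside the 6 of V0 higher. Atp6v1g1 had 665 and 676 CPM in the control libraries and 328, 373 and 333 in the sh-APP libraries (-0.96 ± 0.09) and Atp6v1a fell too (-0.89 ± 0.08). Lysosomal enzymes and membrane proteins rose more often, 21 of 36 with 6 falls (median 0.30), 3 falls with library totals. Smpd1, acid sphingomyelinase, had 150.2 and 164 CPM in the control libraries and 249, 236 and 255 in the sh-APP libraries (0.65 ± 0.08), and 6 of 9 cathepsins rose. Asah1, acid ceramidase, which acts after it, had 775 and 689 CPM in the control libraries and 346, 402 and 345 in the sh-APP libraries and fell (-1.01 ± 0.09), and Lamp2 fell (-0.77 ± 0.09) while Lamp1, its partner in the lysosomal membrane, had a 95% interval of -0.09 to 0.20 (0.26, adjusted p = 0.00684, with library totals). In autophagy 14 of 34 rose and 11 fell (median -0.01), against 16 and 7 with library totals (median 0.20). Map1lc3a, an LC3 protein of the autophagosome, rose from 167 and 159.7 to 312, 283 and 289 CPM (0.85 ± 0.09), and Rb1cc1 and Atg12, which act earlier, fell (-1.25 ± 0.12 and -0.95 ± 0.09).

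**Figure D4:**
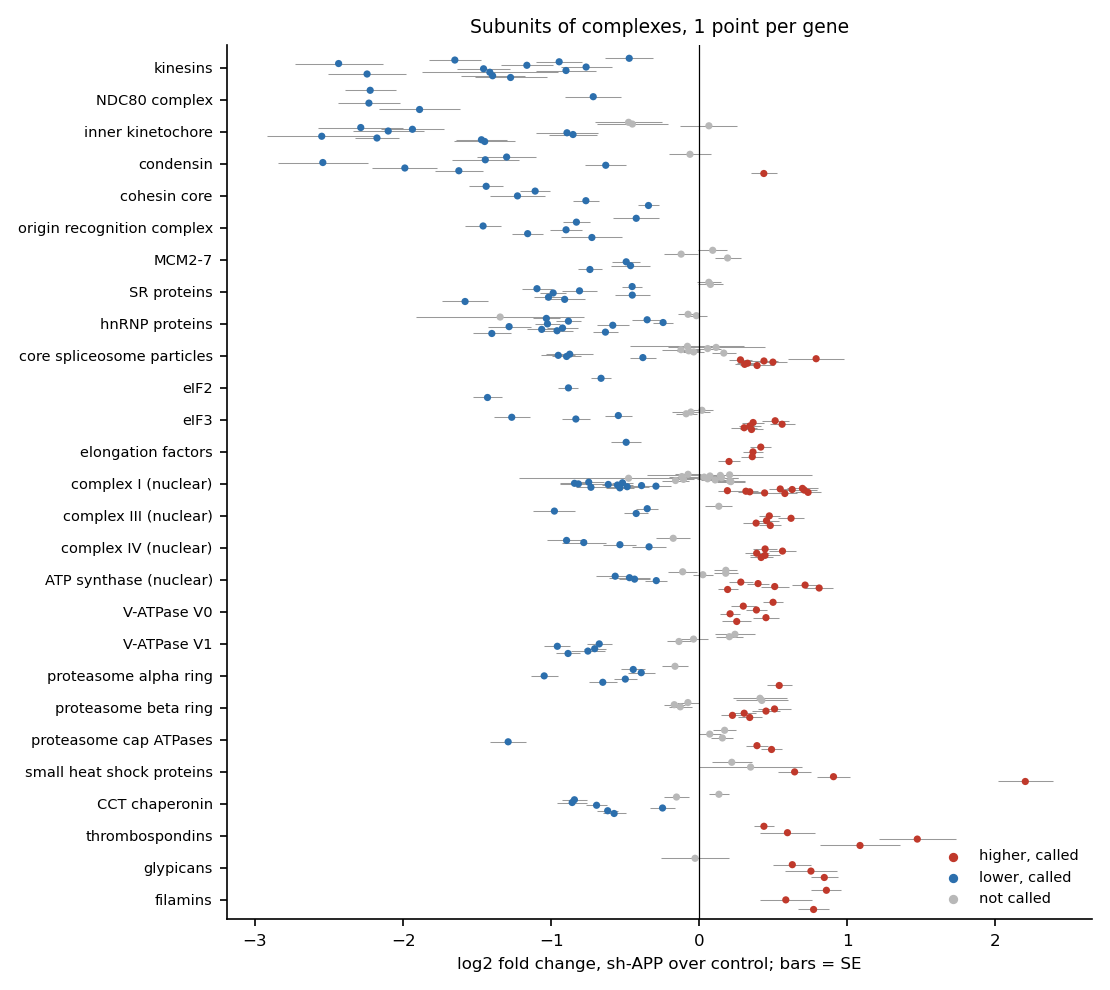
Log2 fold change in sh-APP over control of each tested gene (point, bar = SE) in 27 complexes or families, coloured by the call with TMM factors. Kinesins, cohesin, the origin recognition complex, eIF2 and the V1 head have called genes only on the left, the V0 ring, the thrombospondins and the filamins only on the right, and the nuclear subunits of complexes I, III and IV and of the ATP synthase on both sides.

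Genes of protein folding in the endoplasmic reticulum were called in both directions. Hyou1, Calr and P4hb, chaperones and a disulfide isomerase, were among those that rose. Canx, calnexin, had 2847 and 2805 CPM in the control libraries and 1156, 1349.7 and 1288 in the sh-APP libraries and fell by 1.16 on the log2 scale (-1.16 ± 0.12), Pdia3, a disulfide isomerase, had 1714 and 1579 CPM in the control libraries and 868, 989 and 909 in the sh-APP libraries (-0.84 ± 0.09), and Dnajb9, a cochaperone, fell to 97.6, 114 and 119 from 357 and 335 CPM (-1.65 ± 0.16). Hspa5, the chaperone BiP and the classic marker of the unfolded protein response, was at -0.22 ± 0.07 (adjusted p = 0.0257, edgeR), a call lost without control replicate 1 (0.203), sh-APP replicate 1 (0.0809) or sh-APP replicate 3 (0.0665), and with library totals (-0.01). Of 29 genes 6 rose and 9 fell (median -0.05), against 13 and 6 with library totals (median 0.15). Targets of ATF4, the transcription factor of the amino acid response, were more often higher, with 16 of 27 up and 3 down (median 0.45). Phgdh, the first enzyme of serine synthesis, had 291 and 319 CPM in the control libraries and 534, 507 and 501 in the sh-APP libraries (0.75 ± 0.07), Slc3a2, the shared chain of amino acid transporters, rose by 0.56 ± 0.07, and Cebpb, a transcription factor, rose by 0.98 ± 0.12. Atf4 itself had 100.3 and 86.5 CPM in the control libraries and 95.8, 89.4 and 86.3 in the sh-APP libraries, with overlapping groups, and was not called (-0.04 ± 0.09). Asns and Psat1, further enzymes of the list, were at -0.11 and 0.17 and were not called. Targets of NRF2, the regulator of antioxidant genes, rose in 15 of 30 and fell in 8 (median 0.26). Nqo1, a quinone reductase, had 259 and 262 CPM in the control libraries and 532, 405 and 572 in the sh-APP libraries (0.95 ± 0.12), Hmox1, heme oxygenase, had 156 and 149.7 CPM in the control libraries and 260.1, 198 and 235 in the sh-APP libraries (0.60 ± 0.13), and Keap1, which holds NRF2 in check, rose by 0.77 ± 0.09. Prdx1, a peroxidase, fell (-0.79 ± 0.09), and Nfe2l2, the gene of NRF2, was among the falls (-0.41).

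Glucose metabolism genes were mostly higher, with 14 of 25 genes of glycolysis up and 5 down (median 0.25; 3 down without control replicate 2). Gapdh had 868 and 853 CPM in the control libraries and 1438, 1346 and 1352 in the sh-APP libraries (0.68 ± 0.07) and Aldoa had 807 and 841 CPM in the control libraries and 1294, 1214 and 1262 in the sh-APP libraries (0.61 ± 0.07), with no overlap. Ldha, lactate dehydrogenase A, and Pgam1 stayed within 1.2-fold, with 95% intervals of -0.22 to 0.12 and -0.21 to 0.08. Of 24 hypoxia genes 6 rose and 10 fell (median -0.01, and 0.20 with library totals). Hif1a, the oxygen-regulated factor, had 372 and 359 CPM in the control libraries and 177, 174 and 192 in the sh-APP libraries and fell by 1.01 on the log2 scale (-1.01 ± 0.09), and Vhl, which marks it for degradation, fell (-0.61 ± 0.07) together with the target Bnip3 (-0.81 ± 0.09). The 6 hypoxia genes that rose were Slc2a1, Egln2, P4ha2, Pfkfb3, Epas1 and Ndrg1, 2 of them by more than 2-fold. Sterol genes moved both ways. Srebf1, a lipid transcription factor, had 236 and 296 CPM in the control libraries and 578, 517 and 578 in the sh-APP libraries and rose (1.07 ± 0.10), while the synthesis enzymes Idi1 and Msmo1 fell (-1.36 ± 0.13 and -0.74 ± 0.07), and Idi1 had 440.2 and 455 CPM in the control libraries and 149, 192 and 183 in the sh-APP libraries. In cholesterol synthesis 12 of 26 rose and 10 fell (median 0.19), and in fatty acid genes 9 of 25 rose and 7 fell (median 0.13), against 14 and 5 with library totals. Fads2, a desaturase, rose by 0.84 ± 0.08, and Acsl4 and Acsl3, which activate long fatty acids, fell (-1.62 ± 0.20 and -0.97 ± 0.08). In metal handling 6 of 25 rose and 9 fell (median -0.14, and 0.07 with library totals), and Tfrc, the transferrin receptor that imports iron, had 711 and 725 CPM in the control libraries and 255, 327 and 299 in the sh-APP libraries (-1.29 ± 0.11).

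Cytoskeleton and matrix genes rose in part. Of 36 actin and contractile genes 18 rose and 6 fell (median 0.35). Actb, beta actin, had 6968 and 7541 CPM in the control libraries and 9867, 9676 and 9882 in the sh-APP libraries (0.44 ± 0.07). All 3 filamins, which crosslink actin, rose, by 0.58 to 0.86. Cald1, caldesmon, had 1036 and 959.7 CPM in the control libraries and 424, 505 and 454 in the sh-APP libraries and fell (-1.11 ± 0.10), as did Arpc5 of the Arp2/3 complex (-1.07 ± 0.08), while Tmsb4x, which binds actin monomers, had a 95% interval of -0.20 to 0.20. Plec, plectin, which links filaments of all kinds, had 33.6 and 36.8 CPM in the control libraries and 88.4, 101 and 109.7 in the sh-APP libraries and rose by 1.50 ± 0.12. Among tubulins and their partners 12 of 29 rose and 7 fell (median 0.23), and Dclk1, a microtubule kinase, fell (-1.02 ± 0.10). Of 41 cilium genes 10 rose and 18 fell (median -0.21), against 15 and 13 with library totals (median -0.01) and 14 and 14 with upper-quartile factors. Ift74, of the transport trains inside cilia, had 105 and 96.8 CPM in the control libraries and 34.4, 36.8 and 37.3 in the sh-APP libraries (-1.48 ± 0.11), and of 8 genes of the BBSome and its partner Arl6, which sort cilium membrane proteins, 5 fell and 3 were not called. Of 23 collagens 10 rose and 2 fell (median 0.50; 6 rose without control replicate 1). Col16a1 had 81.1 and 86.01 CPM in the control libraries and 148, 138 and 132 in the sh-APP libraries (0.74 ± 0.08) and Col3a1 had 24.2 and 28.3 CPM in the control libraries and 16.01, 12.9 and 14.3 in the sh-APP libraries (-0.86 ± 0.15), on opposite sides. Timp2, an inhibitor of matrix proteases, rose by 0.80 ± 0.10. In the list of metalloproteinases, ADAMTS proteases and their inhibitors 6 of 31 rose (3 without control replicate 2) and 5 fell (1 without control replicate 1, 3 without sh-APP replicate 1 or 2, 2 without sh-APP replicate 3), with a median of -0.00, against 9 and 1 with library totals. Of 16 intermediate filament genes 5 rose (3 without control replicate 1) and 2 fell (0 to 1 without either control replicate, sh-APP replicate 1 or sh-APP replicate 3), with a median of 0.09, and 1 fell with library totals. In the integrin list 5 of 20 rose and 5 fell (median 0.36), against 11 and 4 with library totals and 9 and 4 with upper-quartile factors. Itgb1, the common beta chain, had 1815 and 1665 CPM in the control libraries and 998, 1123 and 1083 in the sh-APP libraries and fell (-0.70 ± 0.08), and Itgb5 rose (0.80 ± 0.09). Of the phagocytic genes 6 of 18 rose and 6 fell (median -0.11), against 6 and 3 with library totals (median 0.09), and Gulp1, an adaptor of engulfment, had 74.3 and 73.8 CPM in the control libraries and 20.6, 26.96 and 32.9 in the sh-APP libraries (-1.47 ± 0.21).

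Markers of other cells that a culture from pup brain can hold were mostly low. Of 12 microglia and macrophage markers 4 were tested, with a summed level of 12.1 and 15.7 CPM in control and 10.8 to 13.5 in sh-APP, and Aif1, Cx3cr1, P2ry12, Ptprc and the 3 C1q genes were not tested for want of counts. Tyrobp was the 1 tested microglial marker called, as higher, and the call was lost without control replicate 2 (adjusted p = 0.0623, edgeR), while 2 were called higher with library totals. Of 8 endothelial markers 2 were tested, with sums of 3.48 to 3.64 and 2.05 to 3.75 CPM, and Kdr, called higher, was not called without control replicate 2 (0.185), sh-APP replicate 1 (0.0554) or sh-APP replicate 2 (0.0658). The pericyte and fibroblast list summed to 28.4 and 31.1 CPM in control and 39.2 to 42.8 in sh-APP, and 2 of its 8 tested genes rose (1 fell when control replicate 1 or the second library of either other group was left out). Neuronal markers summed to 374 and 395 CPM in control and 193 to 205 in sh-APP, with 4 higher and 4 lower of 11 (1 higher without control replicate 2 and 2 without sh-APP replicate 1). Most of that sum was Map2, which had 228 and 264 CPM in the control libraries and 97.4, 108 and 106 in the sh-APP libraries (-1.24 ± 0.12), and Snap25, a synaptic vesicle protein, had 71.2 and 65.4 CPM in the control libraries and 22.5, 23.2 and 23.3 in the sh-APP libraries (-1.57 ± 0.09). The 4 neuronal markers called higher were Stmn2, Tubb3, Elavl3 and Rbfox3. Log2 fold changes in this list ran from -2.04 to 2.52, with a median of -0.00. The oligodendrocyte list summed to 2672 and 2784 CPM in control and 3147 to 3301 in sh-APP, most of it Olig1, whose rise (0.31 ± 0.08) was lost without control replicate 1 (adjusted p = 0.0621, edgeR). Of its 10 tested genes 2 rose (Olig1 and Mbp) and 2 fell (Ugt8 and Pdgfra). The higher count was 0 to 1 in every fit without 1 library except those without sh-APP replicate 1 or 3. With library totals 4 rose. Mbp, myelin basic protein, rose by more than 2-fold, while Ugt8, a myelin lipid enzyme, fell to 1.00, 1.11 and 1.28 from 6.45 and 5.26 CPM. The ependymal markers summed to 15.3 and 19.0 CPM in control and 19.6 to 22.6 in sh-APP, and 2 of 3 tested genes rose and 1 fell, where the rises were 0 without either control replicate, sh-APP replicate 1 or sh-APP replicate 3, and the falls 0 without control replicate 2 or sh-APP replicate 3. Of the melanocyte markers Mlana, Tyr, Dct, Tyrp1 and Oca2 had too few counts to test, and the list's sum of 4371 and 4452 CPM in control and 2278 to 2483 in sh-APP was nearly all Gpnmb, a membrane glycoprotein that is not limited to pigment cells (-0.91 ± 0.07). The neuronal sum, most of it Map2, and the mitotic genes were lower in the same libraries, and the part of other cells in these results was not tested.

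The sh-APP libraries were also set directly against the 3 anti-Abeta libraries. By the same test 3771 of 14182 genes (26.6%) differed, 1418 higher and 2353 lower in sh-APP, and 2284 differed without sh-APP replicate 1. Mitotic genes were lower in sh-APP in this comparison too: 33 of 40 spindle genes, 32 of 43 kinetochore genes and 33 of 49 replication genes. Ect2 was at 31.4, 49.9 and 26.6 CPM in anti-Abeta, above all sh-APP libraries (log2 fold change of sh-APP over anti-Abeta -2.08 ± 0.25, adjusted p = 0.000499, edgeR). Entpd2 was at 18.7, 16.3 and 19.7 CPM, below all sh-APP libraries (1.74 ± 0.13), and Nqo1 at 273, 254 and 285 CPM (0.89 ± 0.11). Of 30 NRF2 targets 14 were higher in sh-APP and 1 lower. Cyp1a1 was at 1.52, 2.72 and 2.31 CPM (2.10 ± 0.34), and Glul at 1002, 1330.2 and 1039.7 CPM (0.68 ± 0.12). For each of these 5 genes the sh-APP and anti-Abeta libraries did not overlap. Aqp4 was lower in anti-Abeta, at 1484, 1836 and 1739.6 CPM (0.46 ± 0.08, adjusted p = 0.00236). Of 70 cytosolic ribosomal proteins 1 differed, as lower in sh-APP, and of 73 nuclear oxidative phosphorylation genes 13 were higher and 5 lower. Of the mitochondrially encoded genes 12 of 13 were lower in sh-APP, and Mt-atp6 was at 9593, 9120.1 and 6388 CPM in anti-Abeta (-0.92 ± 0.13). The comparison shares its sh-APP libraries with the one against control, so they are not independent of each other.

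Some highly expressed genes stayed within narrow bounds. In 425 genes the 95% interval of the log2 fold change lay within 1.2-fold of no change. The 10 with the highest mean CPM were Aqp4, Tmsb4x, Itm2b, Atp5b, Lamp1, Vcp, Rpl3, Acss1, Pgam1 and Ldha. Itm2b, a membrane protein known to bind the amyloid precursor protein, had 2009.9 and 1795 CPM in the control libraries and 1863, 1823 and 1913 in the sh-APP libraries (-0.03 ± 0.07), with overlapping groups. Vcp, an ATPase that extracts proteins for degradation, was at -0.02 ± 0.07, and at 0.18 with library totals (adjusted p = 0.0431, edgeR). Library totals raise every fold change by a like amount, and Itm2b, Atf4, Ldha, Pgam1, Acss1 and Slc1a3, slightly below 0 and not called, turned positive with them too, without a call. Rpl3 was at 0.09 ± 0.07 (0.30, adjusted p = 0.00438, with library totals). Other members named within a complex, outside the rule for named genes, were picked after their values were seen. No source used here states the strand setting of the counting, so the reads of a gene and of another gene that overlaps it cannot be told apart. In the RefSeq annotation this touches, among the genes given with values here, Acsl3, Acvr2a, Adora1, Ahrr, Aldoa, App, Atp5b, Atp5d, Atp6v1a, Cald1, Caln1, Canx, Ccne2, Cdon, Clock, Col16a1, Cyp1b1, Dclk1, Dnaja1, Dnajb9, Ect2, Ezh2, Fads2, Fanci, Gli3, Glul, Gpc1, Gpc4, Gpc6, Gulp1, Hepacam, Hes6, Hif1a, Hmox1, Hnrnpk, Hspd1, Idi1, Ift74, Igf1r, Igf2bp2, Igfbp7, Itgb1, Kif11, Lamp1, Mcm7, Mdk, Ncapg, Nlgn1, Nr1d1, Nuf2, Orc4, Pdgfd, Pdia3, Plec, Prc1, Psmc6, Rb1, Rb1cc1, Rbbp8, Rbl1, Rpl13, Rpl3, Rpl30, Rpsa, Sema3c, Smad5, Smc5, Snap25, Spc25, Srebf1, Tcf7l2, Thbs1, Timp2 and Ugt8.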

How the data were processed

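RNA of rat astrocytes was measured in 8 libraries, and the deposited table holds raw read counts per gene that the authors made. Per the submitters' processing notes, reads were handled with STAR 2.6.0a, HTSeq 0.11.1, Trimmomatic 0.36 and FastQC 0.11.7 on the rat build rn6, with SAMtools 1.9 and DESeq2 1.24.0 also listed. The strand setting and annotation release are not given in those notes. Groups came from the labels. The table was fitted in R 4.3.3 with edgeR 4.0.16 (TMM factors, robust quasi-likelihood test, Benjamini-Hochberg adjustment at 0.05) on all 8 libraries, which share 1 estimate of the spread, with 5 residual degrees of freedom. Genes needed 10 counts in 2 of the 5 libraries compared. Each standard error is the size of the log2 fold change over the root of its F statistic, and CPM are counts scaled to a common total with TMM factors. Total counts were 34250464 to 47831595. Replicates of a group differed by more than counting noise (chi-square per degree of freedom 17.5 to 47.4), so none was counted as a repeat of another. This spread cannot tell separate cultures from separate libraries of the same culture. The labels' replicate numbers were not used to pair the libraries in the main fit. Correlations of same-numbered deviations ran from -0.0172 to 0.106. The largest, for replicate 1 of sh-APP and anti-Abeta, lay just above the minimum of 0.1 set for pairing. Deviations of the control libraries mirror each other, so their correlations say little about pairing.

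The comparison, its 50 pathway lists and its 8 marker lists (1687 genes, 1658 found in the table, 1569 tested) were chosen with earlier results of these data known. Named genes were the 15 largest called changes in each direction with a mean of at least 5 CPM and groups that did not overlap, up to 3 called genes of each list by smallest p, the 8 largest CPM differences in each direction, 10 genes of high CPM whose 95% interval lay within 1.2-fold, and a fixed set, in which Gli1 could not be tested. On simulated data of the same depths, 67, 67 and 66 genes above 1 CPM were changed by 1.5-fold, 2-fold and 4-fold, in random directions. The fit recovered 62.7%, 85.1% and 97.0% of these changes, with 20 false calls in a run of 13932 genes. So few changed genes are unlike the 54.8% called in the real comparison, so the run does not measure the share of false calls there. Alternatives were DESeq2 1.42.0, limma 3.58.1 (voom), other scaling factors, other filters, a fit that is not robust, a fit of 5 libraries, a replicate term, a fit without the 13 mitochondrially encoded genes and leaving out each library. Promoters came from RefSeq (GRCr8), which is not the build of the counts, so no other coordinates were used. Gene length and GC content were not used. Of the symbols, 26 had been turned into dates and stay unnamed. Results on some named genes are not reported here.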

Additional observations from a re-analysis of the deposited data

How the results depend on the processing

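Of 229 named genes, 209 kept their call under all 19 alternatives. Of 4341 values, 4278 stayed on their side of the threshold with no called value changing sign, 55 lost the call, 7 gained it and 1 was called after its sign changed (Vcp, from -0.02 to 0.18 with library totals). Counting values that were not called, the sign changed in 22 values of 11 genes. With library totals 730 genes rose and 781 fell by more than 2-fold, against 302 and 1331, and 8271 genes were called in all, the most of any alternative. In the fits that left out 1 library, the number called against control ranged from 5929 without control replicate 1 to 7984 without anti-Abeta replicate 2, and without a control replicate the lone control library is assumed to vary like the other groups. Against anti-Abeta, the fits that left out 1 library called 2284 (without sh-APP replicate 1) to 3584 genes (without anti-Abeta replicate 3), all fewer than the 3771 with all libraries, and DESeq2 called 4261. The replicate block, whose numbers may share only a label, gave 7360 calls (3476 higher and 3884 lower). Of 2204 counts of list members under alternatives, 2077 stayed within 1.5 times and 127 moved. With 2 control libraries, small changes of genes under 1 CPM (median SE 0.664) could not be detected.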
